A study of Rattus norvegicus with 60 samples.

Results

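The family of miR-15, miR-16 and miR-195, a group of microRNAs (miRs), was followed in rat retina after ischemia-reperfusion (IR) injury. Its members were taken by name from the array annotation as rno-miR-15b, rno-miR-16, rno-miR-195, rno-miR-322 and rno-miR-497, which gives 5 of the 350 rat miRs on the array. Of these 5 members, 4 were detected well enough to be tested, and rno-miR-322 was not. The retinas came from male Long Evans hooded rats, 1 array per rat. In the IR groups the pressure inside an eye was raised to 110 mmHg for 60 min, and reperfusion then lasted from 0 h (none) through 2 h, 24 h and 48 h to 7d. The sham control rats had the same anesthesia and surgery without the raised pressure and were collected at the same 5 times. Each of the 10 groups held 6 rats, so that 60 arrays were compared. The ages of the rats were not given in the sources used here, and the labels name 6 biological replicates per group. The tissue was whole retina, in which fewer cells of a type and less miR per cell cannot be told apart.

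A microRNA is a short RNA that guides a silencing complex to messenger RNAs, mostly through bases 2 to 8 at its 5′ end, the seed. The miR-15 family is known for targeting the anti-apoptotic messenger Bcl2 and several cyclins of the G1 phase, and for that reason it is often called pro-apoptotic and anti-proliferative. The name comes from such earlier work. Neither cell death nor any target was measured on these arrays. The members are encoded in clusters and are thought to be cut from shared precursors: miR-15b with miR-16, miR-497 with miR-195, and miR-322 with miR-503. In mammals mature miR-16 is also made from another locus, together with miR-15a.

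The mature sequences are shown because the seed is what makes these miRs a family, while the bases after it are what the array probes can tell apart. All 5 members were matched in the RefSeq miR table of the rat assembly GRCr8, and the seed is in capitals:
rno-miR-15b-5p: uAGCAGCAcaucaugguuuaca
rno-miR-16-5p: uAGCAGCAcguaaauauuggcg
rno-miR-195-5p: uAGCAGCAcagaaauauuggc
rno-miR-322-5p: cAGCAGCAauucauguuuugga
rno-miR-497-5p: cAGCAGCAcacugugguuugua
rno-miR-103-3p: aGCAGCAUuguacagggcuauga
rno-miR-107-3p: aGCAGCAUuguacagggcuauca
The 5 members carry the same seed, AGCAGCA, and among the 693 mature miRs of that table no others do. In rno-miR-103 and rno-miR-107, which are listed for comparison, the same 7 bases begin at base 1 instead of base 2, so that their own seed is GCAGCAU. Counted from the 5′ end without gaps, miR-16 and miR-195 were identical at 19 of the 21 bases compared. All other pairs of members were identical at 11 to 16 bases. Whether the probes of miR-16 and miR-195 also bind the other miR was not tested.

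On GRCr8, miR-15b lies at chr2:155555197-155555218 and miR-16 at chr2:155555343-155555364 on the plus strand, with 124 bases between them. Likewise, miR-497 at chr10:55450172-55450193 and miR-195 at chr10:55450509-55450529 are separated by 315 bases on the plus strand. On the minus strand of chromosome X, miR-322 lies at chrX:137726198-137726219, 276 bases from miR-503. The array reads each member with a longer and a shorter probe. In the array annotation, on the rat build rn4, the longer probes lie at chr2:158992255-158992274 for miR-15b and at chr2:158992402-158992420 for miR-16. Those of miR-195 and miR-497 lie at chr10:57074186-57074204 and at chr10:57073849-57073868. The longer probe gave 89.4% to 91.1% of the summed signal of each of the 4 tested members.

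All levels below are scaled log2 signals, that is, the total fluorescence of a miR's probes with arrays brought to a common 75th percentile of the 57 miRs that every array detected. Differences are IR minus sham control on that log2 scale, fitted with limma over the 159 miRs tested, and p-values were adjusted over those 159 miRs. The markers of the labelled tissue were present: the photoreceptor miRs miR-183, miR-96 and miR-182 and the neuronal miR-124 and miR-9 were detected on all 60 arrays. Of the 9 slides that held the arrays, 2 held both treatments and none held both at 1 time. Treatment therefore went largely with slide, and their effects cannot be fully told apart. Before scaling, the IR arrays were dimmer at 24 h, 48 h and 7d. The 75th percentile of the log2 signal differed (IR minus sham control) by -2.15 at 24 h, by -1.19 at 48 h and by -2.58 at 7d, with adjusted exact permutation p-values of 0.00722, 0.0130 and 0.00722 over 10 tests. At 0 h it differed by -1.06 and at 2 h by 0.04 (adjusted exact permutation p = 0.0505 and 0.913). The mean number of detected miRs was 105 in IR and 158 in the sham control at 24 h, 126 and 166 at 48 h, and 98 and 184 at 7d. The adjusted exact permutation p-values of these 3 differences were 0.0108, 0.0526 and 0.00722. The median difference of all tested miRs after scaling was 0.02 at 0 h, -0.01 at 2 h, -0.13 at 24 h, -0.15 at 48 h and -0.15 at 7d. In addition, sham control replicate 1 at 48 h stood apart from the other 5 arrays of its group: it was the lowest for miR-15b, miR-16 and miR-195 and the highest for miR-497. The differences of the members at 48 h are given with and without it.

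Across the time course, 2 members changed and 2 did not pass the test at any time. MiR-15b rose at 48 h and 7d by 1.52-fold and 1.40-fold, a direction that turned when arrays were not normalized against each other. MiR-497, a partner of miR-195 in its cluster, was higher in IR at 2 h and 7d by 1.26-fold and 1.24-fold, of which the 7d difference turned in the same way, and its fall at 48 h rested on single arrays. Without that normalization a difference also holds the brightness gap between IR and sham control arrays, -1.19 at 48 h and -2.58 at 7d. A rise smaller than that gap turns for any miR above the floor, so the turn is not particular to these members. MiR-16 and miR-195 did not pass an adjusted p of 0.05 at any of the 5 times. No member reached the 2-fold change that the study's methods ask of a called miR.

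**Figure D1:**
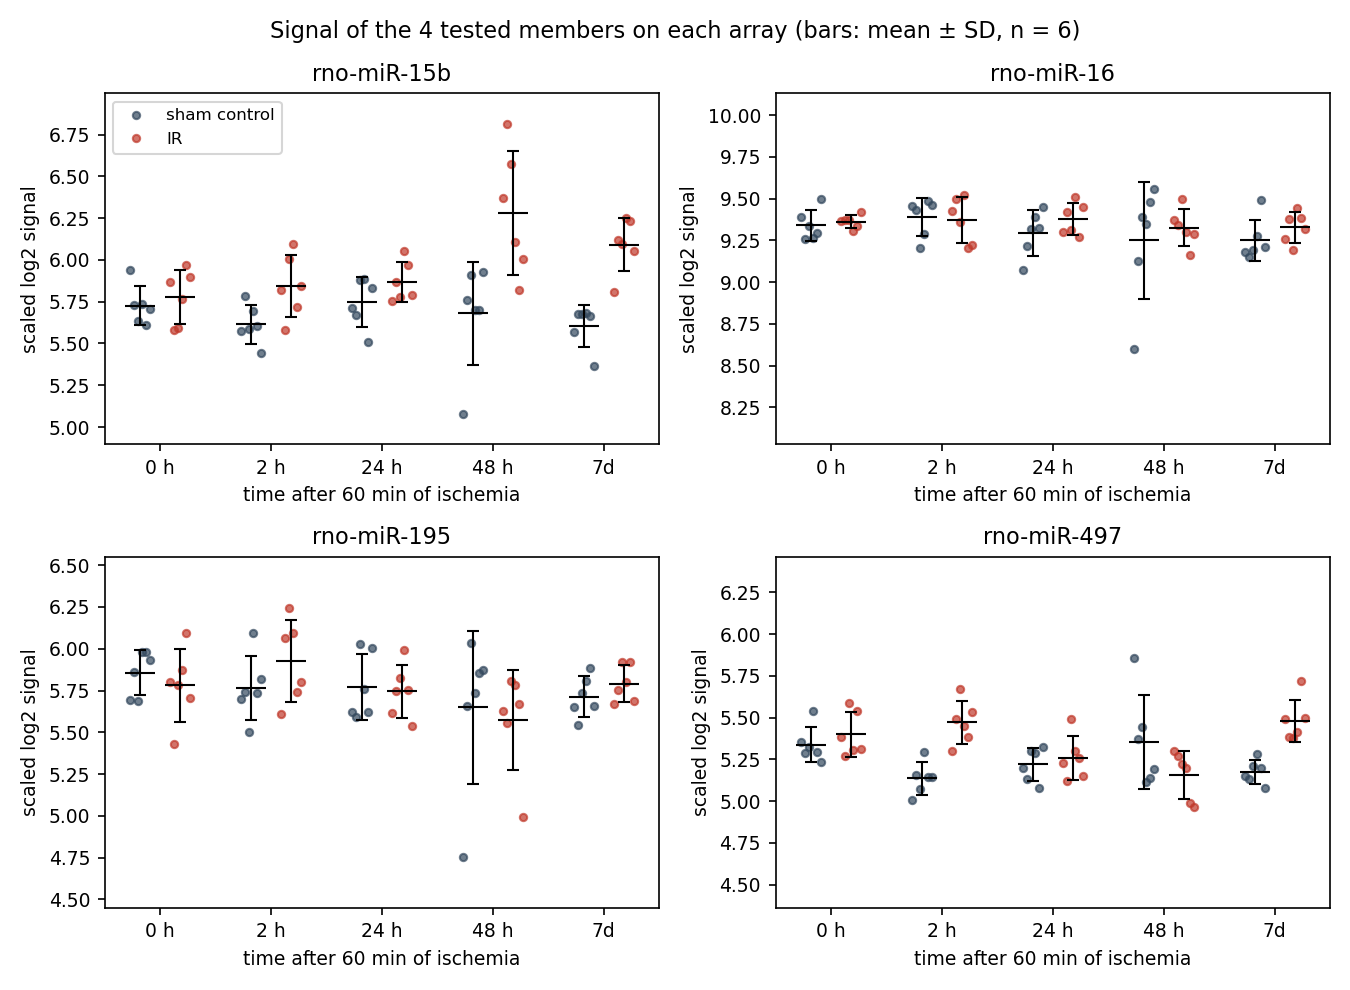
Scaled log2 signal (y axis, a window of equal height in each panel) of the 4 tested members on each array at each time after ischemia (x axis), with sham control arrays in dark blue and IR arrays in red. Horizontal bars are group means with SD for 6 arrays. No IR array overlaps the sham control for miR-15b at 7d and for miR-497 at 2 h and 7d, 5 of 6 IR arrays lie above it for miR-15b at 48 h, and sham control replicate 1 at 48 h stands apart in all 4 panels. The share of all tested miRs without overlap was not counted.

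MiR-15b was level with the sham control at the start. At 0 h the sham control arrays lay between 5.61 and 5.94 (median 5.72) and the IR arrays between 5.58 and 5.97 (median 5.82). At 2 h the sham control ran from 5.44 to 5.78 (median 5.60) and IR from 5.58 to 6.09 (median 5.83), with a difference of 0.23 ± 0.12 (SE) and an adjusted p of 0.399. At 24 h the values were 5.51 to 5.89 (median 5.77) in the sham control and 5.75 to 6.05 (median 5.83) in IR. The ranges overlapped at all 3 of these times, and at none did the difference pass the test.

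At 48 h, miR-15b ran from 5.08 to 5.93 (median 5.73) in the sham control and from 5.82 to 6.81 (median 6.24) in IR. All IR arrays were above the sham control mean, 5 of the 6 were above every sham control array, and the IR arrays were also spread more widely (SD 0.37). The difference was 0.60 ± 0.12 (SE; adjusted p = 2.48e-05), a fold change of 1.52, and its 95% interval ran from 0.37 to 0.83. Without sham control replicate 1 it was 0.48, with an adjusted p of 0.000214. The 3 scan days each held 2 arrays of either treatment, and within them the difference was 1.17, 0.53 and 0.10.

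At 7d the groups no longer overlapped for miR-15b. The sham control arrays lay between 5.37 and 5.68 (median 5.67) and the IR arrays between 5.81 and 6.25 (median 6.11). MiR-15b was flagged as detected on 5 of the 6 IR arrays. The highest IR value, that of replicate 4, was the one not flagged, on an array that detected 59 miRs. The difference was 0.49 ± 0.12 (SE; adjusted p = 0.000385), 1.40-fold, and it was 0.34, 0.49 and 0.63 within the 3 scan days. The direction of the miR-15b rise turned at both times when arrays were not normalized against each other (-0.59 at 48 h and -2.09 at 7d), and at 7d also when log2 signals were averaged over both probes (-0.29) or the shorter probe was used alone (-0.057). The shorter miR-15b probe was at or below the floor on 47 of the 60 arrays. The 7d rise, unlike that at 48 h, also missed the threshold when arrays were scaled to the 75th percentile over all miRs (difference 0.29, adjusted p = 0.0856), and with slide as a fixed block (0.28, adjusted p = 0.192), under which the 48 h rise passed (0.46, adjusted p = 0.0380). Under quantile normalization and in the authors' table the 7d rise did not pass either.

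MiR-16, the partner of miR-15b in its cluster, was the steadiest of the 4 tested members. Its 10 group means lay between 9.25 and 9.39, a range of 0.14, and no pair of neighbouring means in that order was further apart than the larger of the SDs. At 48 h the sham control arrays ran from 8.60 to 9.56 (median 9.37) and the IR arrays from 9.16 to 9.50 (median 9.32). At 7d they ran from 9.15 to 9.49 (median 9.20) and from 9.19 to 9.44 (median 9.35). The groups overlapped at all 5 times. The 5 differences, in order of time, were 0.02, -0.02, 0.08, 0.07 and 0.08 (SE 0.09). Without sham control replicate 1 the 48 h difference was -0.06 (adjusted p = 0.517), a turn of its sign. The 95% interval of the 48 h difference ran from -0.10 to 0.25 and that at 7d from -0.10 to 0.26.

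MiR-195 also did not pass the test at any time. At 2 h the sham control arrays lay between 5.50 and 6.09 (median 5.74) and the IR arrays between 5.61 and 6.25 (median 5.93), the time with its largest difference, 0.16 ± 0.14 (SE; adjusted p = 0.665). At 48 h the ranges were 4.75 to 6.03 (median 5.79) in the sham control and 4.99 to 5.81 (median 5.65) in IR, and each group held 1 array far below the rest. The differences at the remaining times, from 0 h to 7d, were -0.08, -0.02, -0.08 and 0.08 (SE 0.14). The 48 h value rested on sham control replicate 1, the lowest array, without which it was -0.26 with an adjusted p of 0.0540. At 7d the 95% interval ran from -0.19 to 0.35, so that a rise of the size seen for miR-15b at 7d (0.49) lies outside it. That interval holds for the scaling used here only. Over the alternative settings the miR-195 difference at 7d ran from -2.50 to 1.23.

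MiR-497 differed between the groups at 2 h, where its sham control arrays lay between 5.01 and 5.30 (median 5.15) and its IR arrays between 5.30 and 5.67 (median 5.47). The lowest IR array lay just above the highest sham control array. Of the group means, that of the sham control was 5.34 at 0 h and 5.14 at 2 h, and that of IR was 5.40 and 5.47, so that most of the step between these times lay in the sham control, and neither the step among the sham control groups nor the change of the IR effect passed the test. The difference was 0.33 ± 0.08 (SE; adjusted p = 0.00475), 1.26-fold, it kept its sign under each scaling tried, and it was 0.31, 0.38 and 0.31 within the scan days. It passed in 11 of 20 alternatives. Under the scaling over all miRs the adjusted p was 0.0744. The threshold was also missed with log2 signals averaged over both probes, normexp background correction, quantile normalization or no normalization between arrays. No slide held both treatments of 1 time, and with slide as a fixed block the difference was 0.23 (adjusted p = 0.396), whereas with slide as a random block it was 0.31 and passed (adjusted p = 0.0305).

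At 24 h the miR-497 arrays overlapped, with 5.08 to 5.32 (median 5.24) in the sham control and 5.12 to 5.49 (median 5.24) in IR. At 48 h they ran from 5.11 to 5.86 (median 5.28) in the sham control and from 4.97 to 5.30 (median 5.21) in IR. All 6 IR arrays were below the sham control mean (4 of 6 without sham control replicate 1) but only 2 were below every sham control array. MiR-497 fell by 0.20 on the log2 scale (SE 0.08, adjusted p = 0.0475), a fall that turned to a rise of 0.96 under normexp background correction. Without sham control replicate 1, the array that stood apart, the difference was -0.09 with an adjusted p of 0.278. The threshold was also missed without sham control replicate 2 (-0.19) or 3 (-0.18) and without IR replicate 3 (-0.21), 4 (-0.20), 5 (-0.16) or 6 (-0.16).

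At 7d the groups separated again for miR-497, with 5.08 to 5.28 (median 5.17) in the sham control and 5.38 to 5.72 (median 5.45) in IR. MiR-497 was flagged as detected on 5 of the 6 IR arrays, all but replicate 4. The difference was 0.31 ± 0.08 (SE; adjusted p = 0.00183), 1.24-fold, and it was 0.29, 0.15 and 0.47 within the scan days. Its direction turned without normalization between arrays (-2.28) and with log2 signals averaged over both probes (-0.31). Under quantile normalization and in the authors' table the 7d difference did not pass. It also missed the threshold under the scaling over all miRs (0.11, adjusted p = 0.362), with slide as a fixed block (0.27, adjusted p = 0.104) and with array brightness as a covariate (0.24, adjusted p = 0.204). With the same covariate the miR-15b difference was 0.70 at 48 h and 0.69 at 7d, and both passed.

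**Figure D2:**
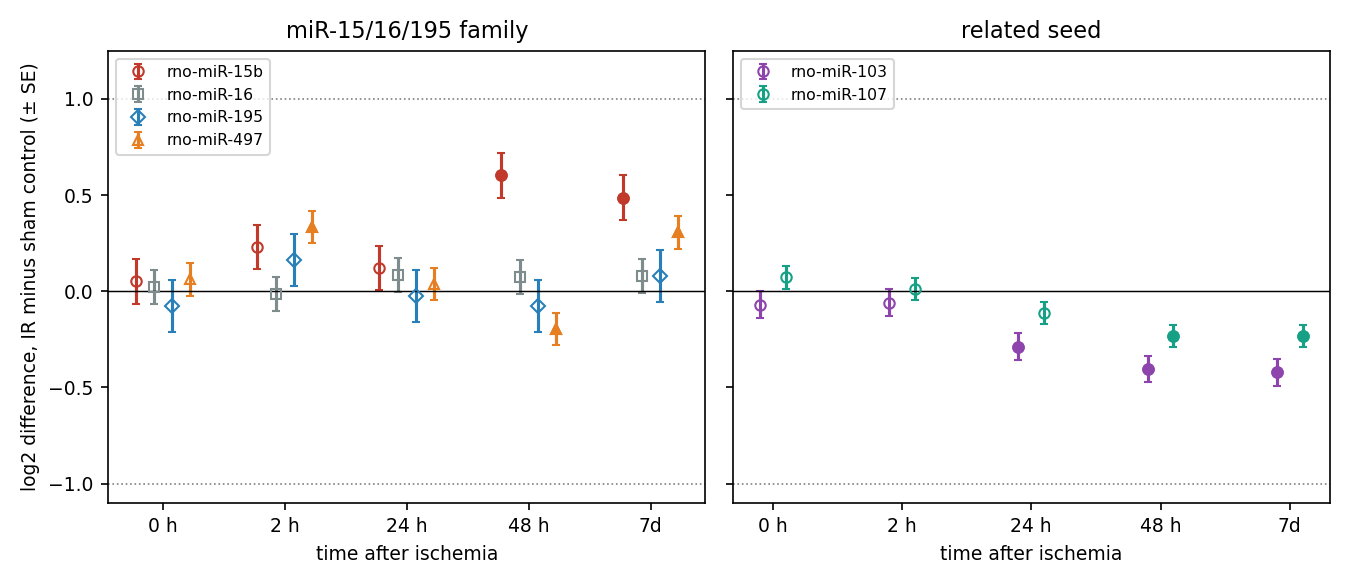
Log2 difference of IR minus sham control (y axis, with SE bars) at each time after ischemia (x axis) for the 4 tested family members (left) and for the miRs with a related seed (right). Filled symbols passed an adjusted p of 0.05, and dotted lines mark a 2-fold change. MiR-15b lies at 0.60 and 0.49 at 48 h and 7d, whereas miR-103 lies at -0.40 and -0.42. With no normalization between arrays the miR-15b values turn negative, and under normexp background correction miR-103 turns positive at 24 h and 7d.

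These counts were read against all tested miRs. At 0 h, 0 of the 4 members passed the adjusted p (limma), where 12.6% of the 159 miRs did, and 0 members were also below an unadjusted p of 0.05, where 25.2% of the 159 miRs were. At 2 h, 1 member passed against 7.55% of all. At 24 h, 0 members passed against 60.4% of all, again with 0 members below an unadjusted p of 0.05, where 66% of the 159 miRs were. At 48 h, 2 members passed against 54.7%, and at 7d, 2 members against 59.7%. With the 2-fold change added, 0 members were called at any time, where 6.92% of all tested miRs were called at 0 h, 5.03% at 2 h, 18.2% at 24 h, 13.8% at 48 h and 18.2% at 7d. The median difference of the 4 members was 0.04, 0.20, 0.06, 0.00 and 0.19 at the 5 successive times. A family of 4 with 2 members past the adjusted p is near the share seen over all miRs at 48 h and 7d. The lack of overlap between IR and sham control arrays is described for members only. How many of the 159 miRs showed none was not counted.

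The change of the IR effect from each time to the next was tested as well. From 0 h to 2 h, 0 members passed (0.629% of all miRs did), and for miR-497 the IR effect at 2 h exceeded that at 0 h by 0.27 (adjusted p = 0.530). From 2 h to 24 h, 0 members passed, against 23.9% of all miRs, and the effect on miR-497 changed by -0.30 (adjusted p = 0.0637). From 24 h to 48 h, 0 members and 0% of all miRs passed, although the effect on miR-15b grew by 0.48 (unadjusted p = 0.00501, adjusted p = 0.204), or by 0.36 without sham control replicate 1 at 48 h. From 48 h to 7d, 1 member passed against 3.14% of all. That member was miR-497, whose effect turned from -0.20 to 0.31, a difference of 0.50 ± 0.12 (SE; adjusted p = 0.00884). It was 0.40 with an adjusted p of 0.0160 when sham control replicate 1 at 48 h was left out, missed the threshold under the scaling over all miRs (0.45, adjusted p = 0.0586), and turned to -0.89 without normalization between arrays. In each of these 4 steps, 1 of the 4 members was below an unadjusted p of 0.05, where 8.18%, 39%, 11.9% and 20.1% of the 159 miRs were in the order of the steps. Among the sham control groups, no member differed from 0 h at 2 h, 24 h, 48 h or 7d at an adjusted p of 0.05, and only miR-497 at 2 h (-0.20, adjusted p = 0.995) was below an unadjusted p of 0.05.

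Members were set against each other within each array, both clustered pairs and miR-16 with miR-195, which removes any scale factor that an array applies to all its miRs. The 15 tests (3 pairs at 5 times) compared 6 IR with 6 sham control values by an exact two-sided permutation, with a smallest possible p of 0.00216. The level of such a difference has no meaning, since different probes are compared, but its shift between groups shows unequal change of the 2 signals. Background left in the signals is not removed. At 7d the median unscaled signal in IR was 25.2 units for miR-15b and 257 for miR-16. In the sham control it was 104 and 1231.5. Under normexp background correction more of the 15 tests passed. At 48 h the log2 difference of miR-15b minus miR-16 was -3.57 ± 0.14 (SD) in the sham control and -3.04 ± 0.30 in IR. The shift of 0.53 had an exact p of 0.00216 and an adjusted p of 0.0162, with no overlap between the 6 IR and the 6 sham control values. At 7d the shift was 0.41, with the same p-values and again with no overlap. MiR-15b therefore shifted against miR-16 on the same arrays, also where sham control replicate 1 at 48 h was left out (0.54, adjusted exact permutation p = 0.0325). Under quantile normalization the shifts were 0.40 and 0.32 and did not pass (adjusted exact permutation p = 0.0974 and 0.169), and with log2 signals averaged over both probes they were 0.16 and -0.32.

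The other pairs did not pass. For miR-195 minus miR-497 the largest shift was -0.23 at 7d, with 5 of 6 IR arrays below every sham control array (exact permutation p = 0.0130, adjusted p = 0.0649). The shift was -0.17 at 2 h (exact permutation p = 0.0563, adjusted p = 0.195). For miR-16 minus miR-195 the shifts ran from -0.18 at 2 h to 0.15 at 48 h, and no adjusted exact permutation p was below 0.454.

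**Figure D3:**
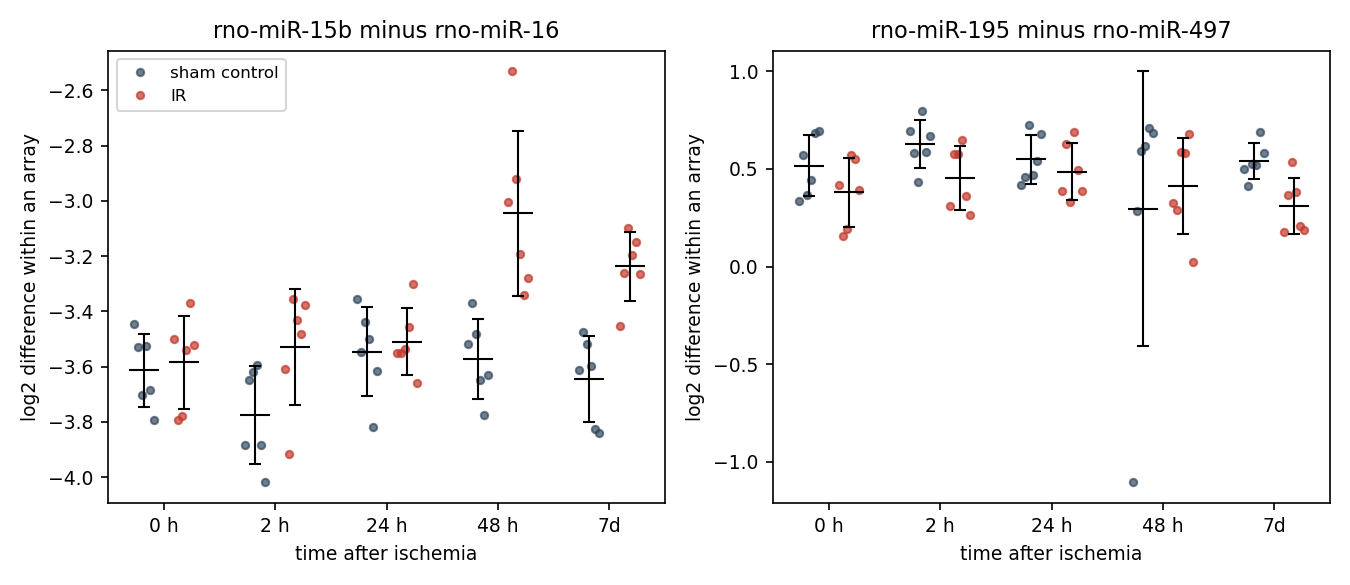
Log2 difference between 2 clustered members on the same array (y axis) at each time after ischemia (x axis), miR-15b minus miR-16 on the left and miR-195 minus miR-497 on the right. Points are arrays (sham control dark blue, IR red) and bars are group means with SD for 6 arrays. For miR-15b minus miR-16 the IR arrays lie above all sham control arrays at 48 h and 7d, by 0.53 and 0.41 on average, shifts that fell short of the threshold under quantile normalization and of which that at 7d turned with log2 signals averaged over both probes.

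MiR-322, encoded on chromosome X with miR-503, was at the limit of the array. It was detected on 2 of the 60 arrays, sham control replicate 6 at 0 h and sham control replicate 6 at 7d. Its unscaled signal ran from -6.80 to 10.4 units with a median of 0.253. After scaling it exceeded the floor of 6.20 units on 1 array, an IR array at 7d on which it was not flagged as detected. No fold change is given for it. Its passenger strand, rno-miR-322*, the opposite strand of the same hairpin, was detected on 0 arrays. It was the only passenger strand of the 5 members found by name on the array. Of 6 listed neighbours, 5 were on the array (miR-503, miR-351, miR-450a, miR-542-3p and miR-542-5p), and none of them was detected on any array.

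Of the 6 miRs listed for a related seed, 3 were on the array. MiR-503 was not detected, and miR-103 and miR-107, known for the control of metabolic genes, were detected on all 60 arrays. MiR-103 fell at 24 h by 0.29, at 48 h by 0.40 and at 7d by 0.42 (SE 0.07 each), with adjusted p-values of 0.000558, 5.56e-06 and 1.45e-06. MiR-107 fell at 48 h by 0.23 and at 7d by 0.23 (SE 0.06 each), with adjusted p-values of 0.000740 and 0.000665. Under normexp background correction the direction turned for miR-103 at 24 h and 7d and for miR-107 at 7d, and the other scalings kept it. Of the 159 miRs tested, 35.8% fell at 24 h, 35.2% at 48 h and 39.6% at 7d. MiR-103 and miR-107 are identical at 22 of 23 bases, and whether their probes also bind the other miR was not tested. At 48 h and 7d the miRs with the offset seed were lower in IR while miR-15b was higher. At 0 h and 2 h neither miR-103 nor miR-107 passed the test.

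The list of miRs linked to the cell cycle and apoptosis held 14 names, all on the array, of which 9 were tested. At 0 h none of the 9 passed (limma) and their median difference was 0.08. At 2 h, 1 rose and 0 fell. At 24 h, 4 rose and 0 fell, at 48 h, 5 rose and 1 fell, and at 7d, 3 rose and 3 fell. Among the 159 miRs tested, 10.7% rose and 1.89% fell at 0 h, 7.55% and 0% at 2 h, 24.5% and 35.8% at 24 h, 19.5% and 35.2% at 48 h, and 20.1% and 39.6% at 7d. MiR-21, known as an anti-apoptotic miR, rose by 2.21 at 24 h, 2.20 at 48 h and 1.23 at 7d. MiR-20a, of the growth-promoting miR-17 family, rose by 0.41, 1.21, 1.34 and 0.90 from 2 h to 7d. The p53 target miR-34a rose by 0.43 at 24 h and 0.30 at 48 h, and miR-29a rose by 0.33 and 0.21. MiR-106b rose by 0.18 at 48 h and 0.21 at 7d. MiR-29c fell by 0.23 at 48 h and by 0.40 at 7d, and miR-29b and let-7a fell by 0.45 and 0.27 at 7d. Without normalization between arrays the direction of all these rises turned, except for miR-20a at 2 h and 48 h and miR-21 at 24 h and 48 h. The rise of miR-29a also turned under normexp background correction at both times and in the authors' table at 24 h, and that of miR-106b at 7d in the authors' table and with log2 signals averaged over both probes.

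The pattern of each member over the 60 arrays was set beside all other tested miRs, as a description over arrays that share slides and scan days. MiR-15b was most like miR-20a (Pearson r = 0.74) and miR-146b (r = 0.69). MiR-16 was most like miR-183 (r = 0.57) and miR-26b (r = 0.51), miR-195 was most like miR-369-5p (r = 0.68) and miR-100 (r = 0.57), and miR-497 was most like let-7b (r = 0.49) and miR-106b (r = 0.46). Within the family r was 0.56 for miR-16 and miR-195. For the clustered pairs it was 0.38 (miR-15b and miR-16) and 0.20 (miR-195 and miR-497). All correlations include sham control replicate 1 at 48 h, the lowest of the 60 arrays for miR-16 (8.60) and miR-195 (4.75). It was also the highest for miR-497 (5.86). No correlation was computed without that array, so the order of the pairs is not read as a result.

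The order of the 10 group means differed by member. For miR-15b the 5 IR groups held the 5 highest means, led by 48 h (6.28 ± 0.37, SD, n = 6) and 7d (6.09 ± 0.16), and the lowest mean was the sham control at 7d (5.61 ± 0.12). Only 1 of the 9 steps between neighbouring means exceeded the larger SD of the pair. For miR-497 the highest mean was IR at 7d (5.48 ± 0.13) and the lowest the sham control at 2 h (5.14 ± 0.10), and 0 of 9 steps exceeded the larger SD. The same was true of miR-195, whose highest and lowest means were both IR groups, 2 h (5.93 ± 0.24) and 48 h (5.57 ± 0.30).

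Some markers of other cells and tissues, though not all, differed between the groups at times when a member passed the test and also at times when none did. The summed signals below were not tested, and they include values not flagged as detected and values raised to the floor. At 24 h and 7d, 4 of the 5 leukocyte miRs were detected on no IR array. The same held for 3 of the 4 liver and muscle miRs. Scaling lifts such values on dim arrays against the fixed floor, and its part in the sums was not tested. The red blood cell miRs on the array were nearly absent, with miR-451 detected on 1 array and miR-144 on none. Of 5 leukocyte miRs on the array, miR-142-3p and miR-142-5p were detected on no array, miR-146a on 1, miR-223 on 16 and miR-150 on 23. Their summed scaled signal was 44.3 to 131 in IR and 34.8 to 48.95 in the sham control at 48 h, 53.1 to 109 and 34.8 to 50.1 at 7d, and 36.5 to 57.6 and 34.2 to 61.0 at 2 h. At the times when no member passed, it was 34.8 to 89.5 in IR and 35.5 to 46.1 in the sham control at 0 h, and 49.97 to 134 and 32.8 to 49.6 at 24 h. The only one tested, miR-150, fell by 0.73 at 48 h and by 0.96 at 7d, a direction that turned under normexp background correction. It was detected on 1 of 6 IR arrays at 48 h and on 0 at 7d, with IR means of 2.79 and 2.72 near the floor of 2.63. MiR-223, which was not tested, went the other way, with means of 4.93 in IR and 3.23 in the sham control at 48 h. At 7d its means were 5.46 and 3.03, and at both times 2 of 6 arrays of each group detected it. Of the 3 miRs of endothelial and mural cells, miR-145 was detected on no array, miR-126 on 48 and miR-143 on 58, with a summed signal of 75.9 to 101 in IR and 70.7 to 102 in the sham control at 48 h. MiR-126, an endothelial miR, fell by 0.52 at 24 h, which turned under normexp background correction, and no miR of that list passed at another time. At 24 h miR-126 was detected on 1 of 6 IR arrays and on 6 of 6 sham control arrays. Among the 4 liver and muscle miRs, miR-133a was detected on no array, miR-1 on 11, miR-122 on 14 and the muscle miR-206 on 57. MiR-206 rose in IR at all 5 times, by 2.04, 2.33, 1.91, 1.96 and 1.34, of which the 24 h and 7d values turned negative without normalization between arrays. The summed signal of that list was 90.8 to 592 in IR and 44.7 to 81.9 in the sham control at 2 h, 222 to 650 and 62.9 to 237 at 48 h, and 115 to 178 and 56.1 to 84.9 at 7d. It was also 140 to 441 in IR and 24.8 to 172 in the sham control at 0 h, and 151 to 308 and 57.7 to 81.3 at 24 h. The part of these cells or tissues in the miR-15b and miR-497 results was not tested.

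Of the 8 retinal markers, 0 passed at 0 h and at 2 h, 1 rose and 3 fell at 24 h, 1 rose and 2 fell at 48 h, and 1 rose and 1 fell at 7d. These 1 to 3 falls among 8 compare with 35.8%, 35.2% and 39.6% of the 159 miRs at 24 h, 48 h and 7d, and the single rises with 24.5%, 19.5% and 20.1%. The one that rose was miR-183, by 0.40, 0.25 and 0.31, a direction that turned under normexp background correction and without normalization between arrays, and under quantile normalization at 24 h and 48 h. MiR-181a, of the inner retina, fell by 0.30, 0.66 and 0.46 under each scaling tried. MiR-9 and miR-204 fell at 24 h by 0.37 and 0.27, and miR-182 fell at 48 h by 0.38, of which miR-9 and miR-182 turned under normexp background correction.

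**Figure D4:**
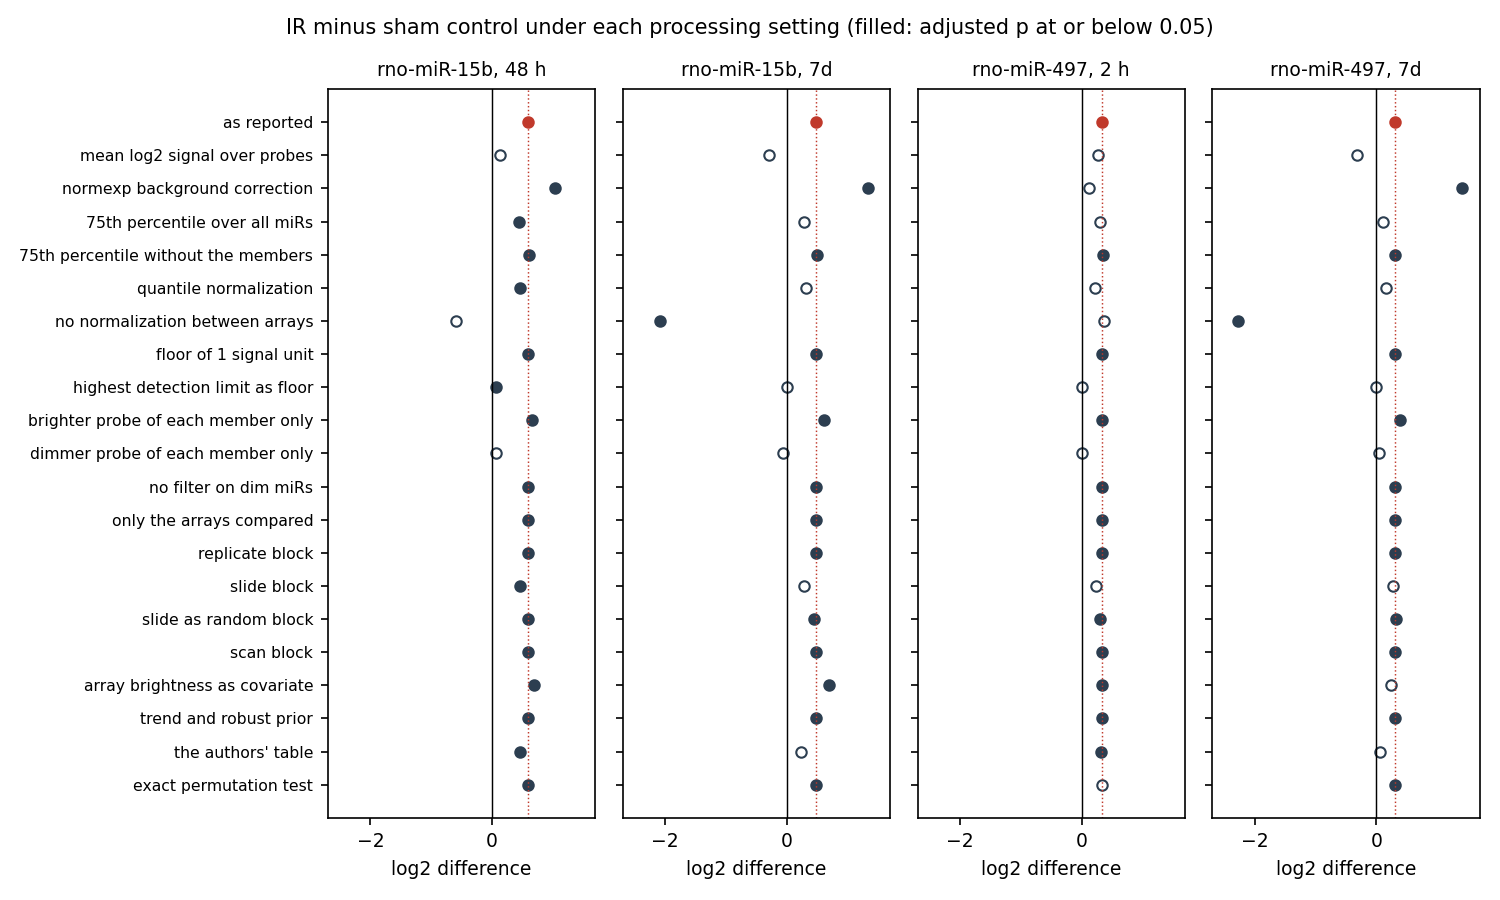
Log2 difference of IR minus sham control (x axis) for miR-15b at 48 h and 7d and for miR-497 at 2 h and 7d under each processing setting (y axis), the values as reported in red at the top with a dotted line. Filled points passed an adjusted p of 0.05. The miR-15b rise at 48 h passed at 0.45 under scaling over all miRs, at which the 7d rise (0.29) did not, and it turned negative without normalization between arrays.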

How the data were processed

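MiR levels in 60 whole retinas were measured on 1-color Agilent arrays (Cy3). The authors deposited scanner files made with Feature Extraction 9.5.3.1, whose intensity values are background-subtracted but not normalized between arrays. They also deposited a log2 table scaled to the 75th percentile, used here only as an alternative, in which all 12600 values compared equaled the log2 total signal (at least 1 unit) minus a constant per array within 0.001 (column medians -0.856 to -0.409). Groups came from the sample labels. The members and the lists of miRs were chosen with earlier results of these data known.

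The total signal of each miR (20 spots, 2 probes) was scaled to a common 75th percentile of the 57 miRs that every array detected, raised to a floor of 6.20 units (the median lowest detected signal) and taken to log2. Any miR that all 6 arrays of some group detected, 159 in all, entered 1 limma 3.58.1 fit in R 4.3.3 with 10 groups. P-values were adjusted by Benjamini-Hochberg per contrast. Passing meant an adjusted p of at most 0.05, and calling also a 2-fold change. Intervals at 95% used the t distribution with 50 degrees of freedom. A miR not flagged as detected on an array kept its measured value, which held for 6 values of the tested members. No member spot was saturated. No 2 arrays were identical, and the number of arrays limits the precision. Within-array pairs used exact permutation tests in Python 3.11.15 with scipy 1.17.1. Scripts were tested on simulated data.

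Named miRs were those of the lists that passed the test or were the only tested miR of a list, the 2 miRs most like each member over all arrays, and members singled out by fixed rules for outlying arrays or differing effects. Correlations of arrays with the same replicate number ran from -0.449 to 0.601 over the 30 numbers checked, so the numbers were not taken as pairs. The arrays lay on 9 slides and were scanned on 3 days. Only 2 of the 9 slides held both treatments, and none held both at 1 time, so within-slide values cannot be given. Treatment thus went largely with slide, and differences within scan days do not separate them. Alternatives changed the background correction, scaling, floor, filter, probe, blocks, test and thresholds, and left out each array in turn.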

Additional observations from a re-analysis of the deposited data

Results flagged for a closer look

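Of the 40 sets of 6 arrays (4 members in 10 groups), 6 held an array whose gap to the next exceeded Dixon's 95% critical value of 0.625 of the range. Chance alone flags about 1 in 20 sets. In the sham control at 48 h, replicate 1 was the lowest for miR-15b (5.08, the others 5.70 to 5.93) and for miR-195 (4.75, the others 5.66 to 6.03). In IR at 48 h, replicate 6 was the lowest for miR-195 (4.99, the others 5.56 to 5.81). In the sham control at 7d, replicate 6 was the lowest for miR-15b (5.37, the others 5.57 to 5.68) and replicate 5 the highest for miR-16 (9.49, the others 9.15 to 9.28). In IR at 7d, replicate 5 was the highest for miR-497 (5.72, the others 5.38 to 5.50).

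The IR effect on miR-497 differed between 48 h and 7d by 0.50 (adjusted p = 0.00884, limma). Each of the 6 IR arrays was lower than the mean of the sham control at 48 h but higher than that mean at 2 h and at 7d. Without sham control replicate 1 at 48 h, the array that stood apart, 4 of the 6 IR arrays were lower than that mean and 2 were higher. The difference between the effects at 48 h and 2 h was -0.53 and was not tested.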

How the results depend on the processing

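The rise of miR-15b at 48 h kept its direction and passed in 17 of 20 alternatives and in all 12 fits without 1 array, and that at 7d in 12 of 20 and 12 of 12. The rise of miR-497 passed in 11 of 20 and 12 of 12 at 2 h, and in 11 of 20 and 12 of 12 at 7d. Its fall at 48 h passed in 8 of 20 and 5 of 12. Differences without normalization between arrays also hold the brightness gap between the groups. The cause of the other changes listed here was not tested, except that the highest detection limit as floor (log2 6.50) lies above nearly all values of 3 members, and that of the 4 only miR-16 was detected on all arrays and so remained under that filter. The signal of these 3 members over background limits all of their values.

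The number of members passing the adjusted p at 0 h was 0 as reported, 3 with normexp, 3 with scaling over all miRs, 1 with quantile normalization, 4 without normalization and 2 in the authors' table. At 2 h it was 1 as reported and 0 with the mean over probes, normexp, scaling over all miRs, quantile normalization, no normalization, the highest detection limit as floor, the shorter probe alone, only miRs detected on all arrays, a slide block or the exact permutation test. At 24 h it was 0 as reported, 1 with the mean over probes, 3 with normexp, 1 with scaling over all miRs, 1 with quantile normalization, 4 without normalization and 3 in the authors' table. At 48 h it was 2 as reported, 3 with normexp or without normalization, 0 with only miRs detected on all arrays, and 1 with the mean over probes, the percentile taken without the members, the highest detection limit as floor, either probe alone, no filter, only the arrays compared, slide as a fixed or random block, brightness as covariate, a trend and robust prior, or the exact permutation test. Leaving out single arrays gave 1 to 2. At 7d it was 2 as reported, 4 without normalization, 3 with normexp or the longer probe alone, 1 with the mean over probes or brightness as covariate, and 0 with scaling over all miRs, quantile normalization, the highest detection limit as floor, the shorter probe alone, only miRs detected on all arrays, a slide block or the authors' table. With the 2-fold change added, 0 was reported at each time, against 3, 4, 3 and 4 at 0 h, 24 h, 48 h and 7d without normalization, 1 and 3 at 48 h and 7d with normexp, 1 at 7d with the mean over probes, and 1 at 48 h with a threshold of 1.5-fold.

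For the change of effect, 1 member instead of 0 passed from 0 h to 2 h with scaling over all miRs or in the authors' table. From 2 h to 24 h, 0 passed as reported, 4 without normalization, 1 with scaling over all miRs, quantile normalization, a scan block or the authors' table, and 0 to 1 without single arrays (1 without IR replicate 1 or sham control replicate 4 at 2 h, and without IR replicate 3 or sham control replicate 5 at 24 h). From 48 h to 7d, 1 passed as reported, 3 without normalization, and 0 with the mean over probes, normexp, scaling over all miRs, the highest detection limit as floor, the shorter probe, only miRs detected on all arrays or the authors' table. Of the within-array pairs, 2 passed as reported, 1 with the mean over probes, 11 with normexp, 0 with quantile normalization and 2 to 4 without single arrays, the 4 coming without IR replicate 2 at 2 h.

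Directions turned as follows. Without normalization, miR-15b was at -1.01, -2.03, -0.59 and -2.09 at 0 h, 24 h, 48 h and 7d, miR-16 at -1.04, -2.07, -1.12 and -2.50, and miR-497 at -0.999, -2.11 and -2.28 at 0 h, 24 h and 7d, with miR-195 at -2.50 at 7d. The effects then changed by -2.09 for miR-16 from 2 h to 24 h, and from 48 h to 7d by -1.38 for miR-16, -1.23 for miR-195 and -0.89 for miR-497. With normexp, miR-195 was at 0.70, 0.87 and 0.88 at 0 h, 24 h and 48 h, miR-497 at 0.96 at 48 h, and miR-16 minus miR-195 shifted by -0.70, -0.75, -0.88 and -1.02 at 0 h, 24 h, 48 h and 7d. Over all 159 miRs, normexp moved the median difference to 0.70, 0.87, 0.85 and 1.13 at those 4 times. With scaling over all miRs, miR-16 was at -0.30 at 0 h and miR-497 at -0.26 and -0.28 at 0 h and 24 h. With quantile normalization, miR-497 was at -0.36 and -0.33. In the authors' table, miR-16 was at -0.29 and -0.27 and miR-497 at -0.25 and -0.32 at these times, where the median of all miRs was -0.29 and -0.50. With the mean over probes at 7d, miR-15b was at -0.29, miR-195 at -1.12, miR-497 at -0.31 and miR-15b minus miR-16 at -0.32. With the shorter probe, miR-15b was at -0.057 at 7d.

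With a replicate block the adjusted p at 48 h was 2.65e-05 for miR-15b and 0.0449 for miR-497, and 0 of the 52 member differences changed sides under the block. Replicate numbers were shared between groups, but only 7 of 30 arrays were most like the array of their own number, so that nothing is drawn from it.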
